A study of Mus musculus with 96 samples.

Results

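Heat-shock proteins and cold-inducible RNA-binding proteins are 2 classes of gene whose transcripts can follow the temperature and the protein-folding load of a cell. The 10 genes described here were taken by name from the 56748 genes of the count table. Cirbp and Rbm3 are the 2 cold-inducible members, and the other 8 are heat-shock chaperone genes, some induced by stress and some constitutive, namely Hspa1a, Hspa1b, Hspa8, Hsph1, Dnajb1, Hsp90aa1, Hsp90ab1 and Hspb1. All 10 names were found once each. The members were chosen with earlier results of these data known.

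When proteins misfold, the transcription factor HSF1 is released from chaperones, forms trimers and binds heat-shock elements, which are repeats of a short GAA unit in alternating orientation, upstream of chaperone genes. HSP70 proteins then hold exposed segments of unfolded protein, J-domain proteins such as DNAJB1 bring them their substrates, and nucleotide exchange factors such as HSPH1 release them again. CIRBP and RBM3 bind RNA and rise with mild cooling, partly because the cooled cell splices their transcripts differently, and in liver their levels follow the daily rhythm of body temperature. Liver, muscle and brain all carry a constant supply of HSC70 (Hspa8) and HSP90β (Hsp90ab1), while the inducible HSP70 genes are nearly silent in unstressed tissue.

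Poly-A RNA was sequenced from the liver, a skeletal muscle sample and the cerebral cortex of each mouse. Male C57BL/6 mice ate without restriction (AL) or went without food for 16 h of every day (intermittent fasting, IF) for 4 months from 6 weeks of age. They were killed in the morning, which the paper gives as the end of the IF fasting window, and were perfused with saline. The stated hours of killing run past the end of the fast, and when the AL mice last ate is not given. The males are mice 1 to 16, with 8 per diet. Mice 25 to 40 are labelled female, with 8 AL and 8 IF, and the labels give no age, fasting hours or duration for them. Every mouse gave 3 tissues, 96 libraries in all, and the totals counted on genes ranged from 26097314 to 49838004 with a median of 36132954 in the 95 libraries used.

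One library was omitted. The library labelled male cortex AL replicate 1 held 213 CPM of Xist, an RNA made from the inactive X chromosome, and 0 CPM of the Y-linked gene Ddx3y, against at most 0.229 CPM of Xist and at least 25.1 CPM of Ddx3y in the other male cortex libraries. It goes against its label, and the other 95 libraries matched theirs. AL cortex therefore has 7 male mice. Each level is in CPM, which scales a gene's count to the sum of its library over all genes. Ranges and tallies of mice are on this scale, without the TMM scaling factors of the main tests. Where a range with TMM scaling factors is given, the factors came from all libraries of that tissue, males and females together. Ranges with the factors of the male fits were not computed. The tissue labels were matched by their defining markers, with Alb at a mean of 34989 CPM in male AL liver, Acta1 at 43609 CPM in male AL muscle and Snap25 at 2428 CPM in male AL cortex.

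The members sat at different loci apart from one close pair. On GRCm39, Hspa1b (ENSMUSG00000090877) covers chr17:35175412-35178214 and Hspa1a (ENSMUSG00000091971) chr17:35188166-35191132, both on the minus strand. Of the 150-base windows along the Hspa1a transcript, 38.1% occur unchanged in the Hspa1b transcript, and 40.5% the other way. How reads shared by both genes were counted, and the strand setting, are not given in the sources used here, so the split between these 2 genes is uncertain and their values are best read together. Rbm3 on chromosome X overlaps the antisense gene Rbm3os, which held at most 0.803 CPM in any library used.

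Levels are first compared between genes per kilobase of gene length, in male AL mice. In cortex, Hsp90ab1 stood highest at 524 ± 31.1 CPM per kb (SD, n = 7), followed by Hspa8 at 476 ± 33.1, and their ranges overlapped. The inducible HSP70 genes stood lowest in cortex, with Hspa1a at 4.32 ± 1.28 and Hspa1b at 6.79 ± 2.89 CPM per kb. Hsp90ab1 and Hspa8 are the constitutive genes of their families and Hspa1a and Hspa1b the stress-inducible ones. Muscle was led by Hsp90ab1 at 419 ± 39.3 CPM per kb (SD, n = 8), with the small heat-shock gene Hspb1 at 328 ± 52.0 and Hspa8 at 285 ± 43.0. Liver was led by Hspa8 at 301 ± 91.4 CPM per kb (SD, n = 8).

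Across tissues, 9 of the 10 members had their highest male AL mean in cortex, and Hspb1 had it in muscle. Cirbp was 2.22-fold higher in cortex than in muscle, and its muscle and liver ranges overlapped. Rbm3 stood in the order cortex, muscle, liver from high to low, with no overlap between neighbours in males, while muscle and liver overlapped in females. Hspa1a in liver was at the edge of detection, with 0 to 27 counts per male AL library and 3 of 8 libraries at 0. Hsp90aa1, the inducible HSP90α gene, was 20.2-fold higher in cortex than in muscle in both sets of mice, and its 3 tissues did not overlap in either set. Ranges of neighbours overlapped for Hspa1b and for Hspa8 throughout the male order, and those of cortex and muscle overlapped for Hspa1a and Hsp90ab1.

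**Figure D1:**
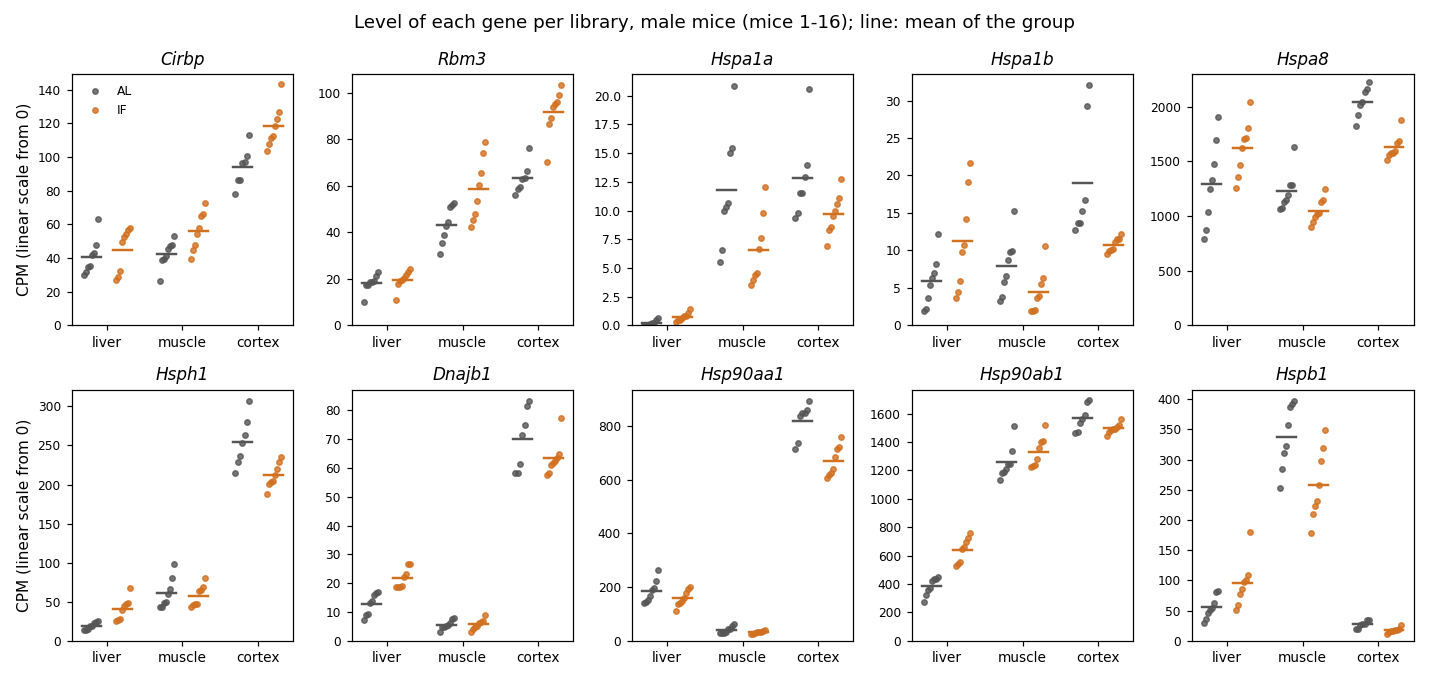
Level of each of the 10 genes in CPM (linear axis from 0) in liver, muscle and cortex of male mice, with 1 point per library, AL in grey and IF in orange, and a line at the mean of each group. In CPM from library totals, as plotted, Hsph1, Dnajb1 and Hsp90ab1 in liver show every IF library above every AL library, and Hspa1b in cortex shows every IF library below every AL library. With TMM scaling factors from all liver libraries of both sets, the diets overlap for these liver genes.

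The cold-inducible genes were higher under IF in male cortex. Rbm3 ranged from 56.0 to 76.5 CPM with a median of 63.0 in 7 AL mice, and from 70.3 to 103 with a median of 94.6 in 8 IF mice. Only the lowest IF mouse lay within the AL range, and the other 7 lay above it. The log2 fold change was 0.55 ± 0.08 (SE), with an adjusted p of 0.000735 (edgeR's quasi-likelihood test, Benjamini-Hochberg adjustment over all genes). Cirbp ranged from 78.0 to 113 CPM with a median of 96.2 in AL cortex, and from 104 to 143 with a median of 116 in IF cortex. The groups overlapped, with 4 of 8 IF mice above every AL mouse. Its log2 fold change was 0.35 ± 0.08, with an adjusted p of 0.0151 in the same edgeR fit. The Cirbp call was lost with the omitted library included (0.29, adjusted p = 0.0745) and without AL mouse 2 and IF mouse 10 (adjusted p = 0.05, both edgeR), while Rbm3 passed in both. Oligodendrocyte genes, given below, also moved with the diet in these libraries.

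Both cold-inducible genes differed little between the diets in male liver. Rbm3 had a median of 18.6 CPM in AL liver (10 to 23.0) and 19.9 in IF liver (11.1 to 24.4), and Cirbp 38.8 (29.6 to 63.4) against 50.9 (26.6 to 57.6). Their log2 fold changes were 0.02 ± 0.14 and 0.03 ± 0.17 (SE), and neither passed the test. In male muscle the values were 0.36 ± 0.14 for Rbm3 and 0.33 ± 0.15 for Cirbp, with adjusted p of 0.0759 and 0.119 in edgeR. Rbm3 had a median of 43.6 CPM in AL muscle (30.6 to 52.6) and 57.0 in IF muscle (42.2 to 78.8), and Cirbp 43.4 (26.02 to 53.2) against 56.1 (39.2 to 72.8). In CPM from library totals, 7 of 8 IF muscles lay above the AL median for each gene and 5 above every AL muscle. With TMM scaling factors from all muscle libraries, AL muscle reached 54.82 CPM for Rbm3 and 56.1 for Cirbp. This tally was not made on that scale. Rbm3 passed without IF mouse 12 (adjusted p = 0.0307, edgeR) and in DESeq2 (adjusted p = 0.0299). With library totals alone in place of TMM scaling factors, both passed in muscle (adjusted p = 0.0362 for Rbm3 and 0.047 for Cirbp, edgeR), and that scaling also moved the muscle calls from 1726 higher and 1737 lower to 2553 higher and 1073 lower.

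Hsph1, Dnajb1, Hsp90ab1 and Hspa1a were higher under IF in male liver. There 4 of 10 members passed the test and all 4 were higher under IF, against 44.6% of all genes tested that passed in either direction and 23.5% that passed as higher. No member was among the 21.1% called lower. The share of members called is thus near that of all genes. Hspa1a is counted among the 4, though it met the filter on low counts through its IF libraries and its call was lost without single mice. The median log2 fold change of the 10 members was 0.66, beside 0.06 over all genes tested.

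Hsph1, the HSP110 exchange factor of HSP70, ranged from 13.97 to 24.7 CPM with a median of 18.5 in AL liver, and from 25.3 to 67.1 with a median of 42.2 in IF liver. In these CPM all 8 IF mice lay above all 8 AL mice. With TMM scaling factors from all liver libraries of both sets, the groups overlapped (AL up to 27.13, IF from 24.94). The log2 fold change was 1.01 ± 0.19 (adjusted p = 0.000162, edgeR). Dnajb1, the HSP40 partner of HSP70, ranged from 7.27 to 16.8 CPM (median 13.4) in AL liver and from 18.5 to 26.6 (median 20.7) in IF liver. Again the groups did not overlap in CPM, while with TMM scaling factors they did (AL up to 17.92, IF from 17.24). The log2 fold change was 0.68 ± 0.16 (adjusted p = 0.00154, edgeR). Hsp90ab1, the constitutive HSP90β gene, ranged from 274 to 447 CPM (median 397) in AL liver and from 529 to 757 (median 655) in IF liver, with no overlap. With TMM scaling factors its groups overlapped (AL up to 490.7, IF from 477.2). Its log2 fold change was 0.65 ± 0.12 (adjusted p = 0.000159, edgeR). These 3 are the members whose ranges were apart in liver in CPM from library totals, where 14.6% of all genes tested had the diets apart. With those TMM scaling factors the ranges of all 3 overlapped, and with the factors of the male fit they were not computed. Hsph1 and Hsp90ab1 passed under all 24 alternatives run for male liver, with adjusted p of at most 0.0218 and 0.0232 in edgeR or DESeq2.

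The inducible HSP70 pair was less certain in liver. Hspa1a had a median of 0.150 CPM (0 to 0.663) in AL liver and 0.702 (0.317 to 1.42) in IF liver, which is 11 to 55 counts per IF library. Every IF mouse lay above the AL median and 4 of 8 above every AL mouse. Hspa1a met the filter on low counts through its IF libraries, since the AL libraries held 0 to 27 counts with 3 of 8 at 0. The log2 fold change of 1.81 ± 0.68 passed with an adjusted p of 0.0343 in edgeR. That call was lost when any one of AL mice 1, 3, 4, 6 or 8 or IF mice 9, 10 or 11 was left out, with adjusted p between 0.0528 and 0.0709 in edgeR. Hspa1b, its near-identical neighbour, had medians of 5.84 (1.95 to 12.2) and 10.3 CPM (3.68 to 21.6), and its log2 fold change of 0.87 ± 0.43 did not pass (adjusted p = 0.112, edgeR). With the counts of both genes added into 1, a fit chosen after the data were seen, the pair stood at 0.91 ± 0.42 in liver and did not pass (adjusted p = 0.0879, edgeR).

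Hspa8, the constitutive HSC70 gene, had medians of 1288 CPM (789 to 1908) in AL and 1662 (1259 to 2046) in IF liver, and a log2 fold change of 0.23 ± 0.17 that did not pass. Hspb1 had medians of 52.6 CPM (30.04 to 83.2) and 91.3 (51.5 to 180). In CPM from library totals 5 of 8 IF livers lay above every AL liver for Hspb1. With TMM scaling factors from all liver libraries its AL range reached 93.94 CPM, and that tally was not made. The log2 fold change of Hspb1 was 0.67 ± 0.27, with an adjusted p of 0.0518 in edgeR. It passed without any one of AL mice 3 or 7 or IF mice 13 or 14 (adjusted p from 0.0243 to 0.039), with library totals alone (0.0168) and with a filter of 10 counts in every library (0.0448, all edgeR). Hsp90aa1 had medians of 179 CPM (140 to 264) and 154 (112 to 200), and was the one heat-shock member with a negative value in liver, at -0.32 ± 0.15 (adjusted p = 0.0806, edgeR). It passed as lower without AL mouse 2 (-0.38, adjusted p = 0.0322), without IF mouse 10 (-0.40, adjusted p = 0.0255) and without both (-0.46, adjusted p = 0.00778, all edgeR). With no filter it also passed (-0.35, adjusted p = 0.0399, edgeR). The HSP90 pair thus had values of opposite sign in liver, 0.65 and -0.32.

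Red-cell transcripts moved with the diet in male liver. The summed level of 5 erythrocyte genes (Hba-a1, Hba-a2, Hbb-bs, Hbb-bt and Alas2) had a median of 569 CPM (362 to 956) in AL and 2070 CPM (667 to 6879) in IF liver. Hba-a1 was the most abundant of them, 3 of 5 passed as higher and none was at 0. With the mean log2 level of these genes as a covariate, 2 members passed in liver in place of 4, and 4284 genes in place of 7234. Hspa1a then had a log2 fold change of 1.14 (adjusted p = 0.374) in place of 1.81, and Dnajb1 one of 0.58 (adjusted p = 0.0568, both edgeR) in place of 0.68, while Hsph1 and Hsp90ab1 stayed past the threshold. Since the erythrocyte level itself moved with the diet, a fit holding both cannot separate their parts. In these bulk libraries fewer cells of a type and less RNA per cell cannot be told apart.

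In male muscle 3 of 10 members passed and all 3 were lower under IF (2 higher and 1 lower with library totals alone), against 23% of all genes tested in either direction, 11.6% as lower and 11.5% as higher. The members' median log2 fold change was -0.22, beside 0.01 over all genes. No member had its diets apart there, while 4.17% of the genes tested did.

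Hspa8 in muscle ranged from 1065 to 1635 CPM (median 1167) in AL and from 897 to 1244 (median 1023) in IF. The groups overlapped, with 5 of 8 IF mice below every AL mouse. The log2 fold change was -0.29 ± 0.08 (adjusted p = 0.0136, edgeR), and with library totals alone it was -0.22 with an adjusted p of 0.0513. Hspb1, the small heat-shock protein HSP25 that holds partly unfolded protein and is abundant in muscle, ranged from 252 to 396 CPM (median 340) in AL and from 178 to 349 (median 245) in IF. Its log2 fold change was -0.46 ± 0.13 (adjusted p = 0.0146, edgeR), and without a filter on low counts its adjusted p was 0.0525. In IF muscle 4 of 8 mice lay below every AL mouse for Hspb1. Hspa1a had medians of 10.5 CPM (5.49 to 20.8) and 5.58 (3.53 to 12.1), with a log2 fold change of -0.92 ± 0.31 and an adjusted p of 0.0428 in edgeR. That last call was lost without any one of AL mice 1, 2, 3, 5, 7 or 8 or IF mice 11, 13, 14, 15 or 16 (adjusted p from 0.0542 to 0.0834), with library totals alone (0.0641) and with no filter (0.0848, all edgeR).

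Hspa1b had medians of 7.66 CPM (3.27 to 15.3) in AL and 3.79 (1.90 to 10.6) in IF muscle, with overlapping groups. It stood at -0.89 ± 0.40 (adjusted p = 0.125, edgeR), and passed at -1.19 (adjusted p = 0.0312) without IF mouse 10. The summed pair stood at -0.91 ± 0.34 in muscle and did not pass (adjusted p = 0.0713, edgeR). Hsp90aa1 stood at -0.40 ± 0.16 (adjusted p = 0.081 in edgeR, 0.0254 in DESeq2), while Hsph1, Dnajb1 and Hsp90ab1 lay within 1 SE of 0. Fat-cell transcripts also moved with the diet in muscle. The summed level of Adipoq, Plin1, Cfd and Retn had a median of 83.4 CPM (30.1 to 307) in AL and 670 CPM (107 to 1699) in IF muscle, Cfd was the most abundant, 4 of 4 passed as higher and none was at 0. Their part in the members' values was not tested.

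In male cortex 7 of 10 members passed, 2 higher (the cold-inducible pair) and 5 lower. Of all genes tested 7.21% passed in either direction, 3.79% as higher and 3.43% as lower. The members were chosen with earlier results of these data known, so setting these shares side by side is no test of an excess. The members' median was -0.26, beside -0.005 over all genes. The count of 7 members depended strongly on the omitted library. With it included, 1 member (Rbm3, adjusted p = 0.00856, edgeR) and 294 genes passed in place of 7 and 1332. The members' cortex calls, other than that of Rbm3, therefore rest on leaving that library out. In that library Hspa1b stood at 9.04 CPM, below every IF mouse, and Rbm3 at 83.9 CPM, above every other AL mouse. With it, the adjusted p in edgeR was 0.0831 for Hspa1b, 0.0513 for Hspa8, 0.147 for Hsph1, 0.0711 for Hsp90aa1 and 0.185 for Hspb1. Without AL mouse 2 and IF mouse 10, 4 members passed, and Hsph1 and Hsp90aa1 (0.0699 and 0.0577 in edgeR) did not, nor did Cirbp. In the cortex libraries used, the oligodendrocyte genes Mbp and Mog, given below, were higher under IF.

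Hspa1b in cortex ranged from 12.8 to 32.02 CPM (median 15.3) in 7 AL mice and from 9.58 to 12.2 (median 10.7) in 8 IF mice. The groups did not overlap, which held for 1.01% of all genes tested and for no other member in cortex. AL mice 3 and 7 stood far above the rest of their group, at 32.02 and 29.3 CPM. The log2 fold change was -0.81 ± 0.19 (adjusted p = 0.0178, edgeR). Hspa1a had medians of 11.6 CPM (9.34 to 20.6) and 9.72 (6.92 to 12.8), and its value of -0.38 ± 0.15 did not pass (adjusted p = 0.127, edgeR). The summed pair had medians of 26.83 CPM (22.55 to 52.62) in AL and 19.45 (18.06 to 24.29) in IF cortex, so that its groups overlapped, with 6 of 8 IF mice below every AL mouse. It passed at -0.62 ± 0.16 (adjusted p = 0.0308, edgeR), and did not with the omitted library included (adjusted p = 0.0886, edgeR).

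Hspa8 in cortex ranged from 1822 to 2227 CPM (median 2041) in AL and from 1509 to 1875 (median 1588) in IF. All IF mice lay below the AL median and 7 of 8 below every AL mouse, and the log2 fold change was -0.31 ± 0.06 (adjusted p = 0.00649, edgeR). Hsp90aa1 ranged from 714 to 892 CPM (median 848) in AL and from 607 to 759 (median 661) in IF, a log2 fold change of -0.28 ± 0.06 (adjusted p = 0.0149, edgeR). HSP90α is the stress-inducible HSP90, and its constitutive partner Hsp90ab1 had a log2 fold change of -0.06 ± 0.05.

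Hsph1 in cortex had medians of 253 CPM (215 to 307) and 208 (188 to 236), and 5 of 8 IF mice lay below every AL mouse (log2 fold change -0.25 ± 0.07, adjusted p = 0.0356, edgeR). Hspb1 had medians of 28.1 CPM (19.3 to 35.3) and 17.4 (11.6 to 26.6), and 7 of 8 IF mice lay below every AL mouse (-0.61 ± 0.16, adjusted p = 0.031, edgeR). Hsph1 and Hspb1 were the members whose cortex call changed when a single one of the libraries used was left out. Hsph1 was lost without any one of AL mice 2, 3, 5 or 8 or IF mice 10, 11, 13, 14 or 15, and Hspb1 without any one of AL mice 3, 4 or 5 or IF mice 10, 11, 13, 14 or 16, with adjusted p between 0.0502 and 0.0706 in edgeR. Hspb1 also missed the threshold with no filter (0.0908, edgeR). Dnajb1 stood at -0.13 ± 0.08 and did not pass. Among oligodendrocyte genes, Mbp and Mog were higher in IF cortex of the same mice, by 0.59 ± 0.12 and 0.53 ± 0.08 on the log2 scale (adjusted p = 0.0091 and 0.00194, edgeR), with Mbp at a mean of 3275.5 CPM in AL and 4892.2 CPM in IF. Their part in the members' values was not tested.

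**Figure D2:**
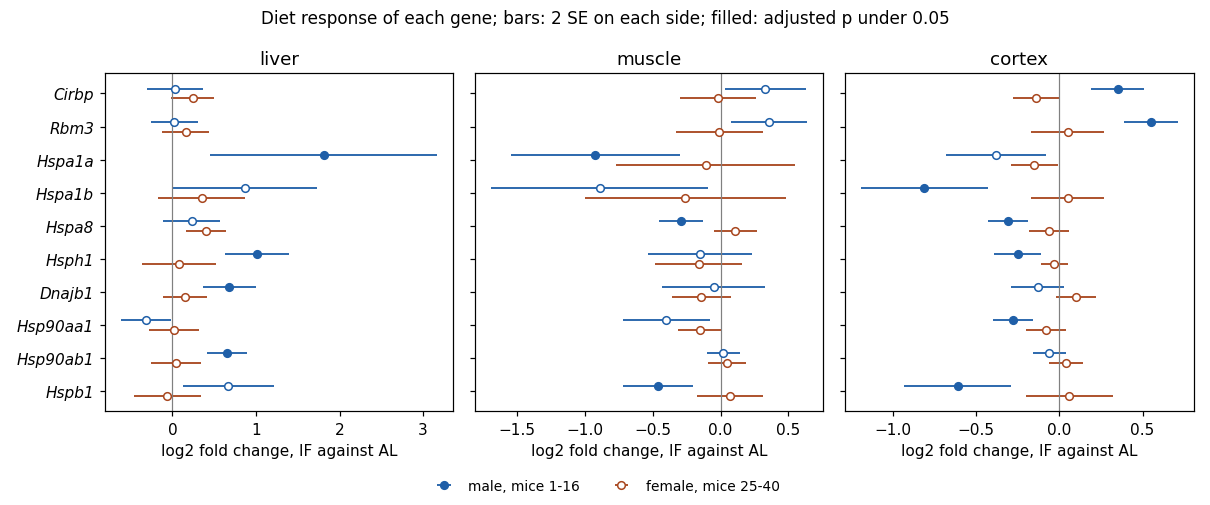
Log2 fold change of IF against AL for each gene in liver, muscle and cortex, males in blue and females in brown, with bars of 2 SE on each side and filled points for an adjusted p under 0.05. Filled points lie right of 0 in male liver, left of 0 in male muscle and on both sides in male cortex, and no female point is filled.

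Whether the diet response differed between tissues was tested within male mice, in 1 fit with the mouse as a block. The diet response of liver exceeded that of muscle in 7 members (31% of all genes differed), namely Hspa1a, Hspa1b, Hspa8, Hsph1, Dnajb1, Hsp90ab1 and Hspb1. It exceeded that of cortex in the same 7, and Rbm3 had a lower response in liver than in cortex by 0.59 on the log2 scale (26.7% of all genes differed). Hspa1a and Hspa1b are counted singly here though their split is uncertain, and their sum was not tested between tissues. Hspa1a had the widest gap of the members, 2.73 ± 0.47 between liver and muscle (adjusted p = 2.82e-05, edgeR), but its liver counts were near 0 and its liver call was lost without single mice, so the size of this gap is uncertain. Muscle and cortex differed in none of the 10 (3.8% of all genes differed, and 822 genes passed in edgeR, against 3570 at an unadjusted p under 0.05). A p that misses the threshold does not show that the 2 responses are alike. The tests with cortex leave out the library that goes against its label and were not run with it. Of 5 erythrocyte genes, 3 passed in male liver and none in muscle or cortex (median log2 fold change 1.7 in liver, 0.03 in muscle and -0.07 in cortex), and their part in these differences was not tested.

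Few genes were called in female mice with all libraries in. In female liver 0 genes passed in edgeR (0% of those tested), against 919 at an unadjusted p under 0.05 and 6 in DESeq2. In female muscle 1 gene passed (0.00653%) and in female cortex 2 (0.0109%), with 91 and 73 in DESeq2. Without AL mouse 26, 254 genes and no member passed in female cortex. No member was among the genes called by edgeR or by DESeq2, and Hspa1a in female liver was too low to be tested. Rbm3 in female cortex had medians of 71.4 CPM (66.5 to 95.5) in AL and 79.4 (42.5 to 95.4) in IF, with a log2 fold change of 0.05 ± 0.11. For Rbm3, 7 of 8 IF mice lay above the AL median. IF mouse 36 stood far below its group (42.5 CPM, next 72.3) and AL mouse 25 far above its own (95.5, next 75.0). Cirbp there had medians of 131 CPM (113 to 154) and 119 (104 to 133), and a log2 fold change of -0.14 ± 0.07. Hspa8 in liver had the smallest p of the female members, with medians of 1018 CPM (890 to 1447) in AL and 1382 (1155 to 1605) in IF. All 8 IF mice lay above the AL median and 3 above every AL mouse, and the log2 fold change of 0.40 ± 0.12 had an adjusted p of 0.785 in edgeR (unadjusted 0.00391). The other tested members lay between -0.26 (Hspa1b in muscle) and 0.35 (Hspa1b in liver).

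**Figure D3:**
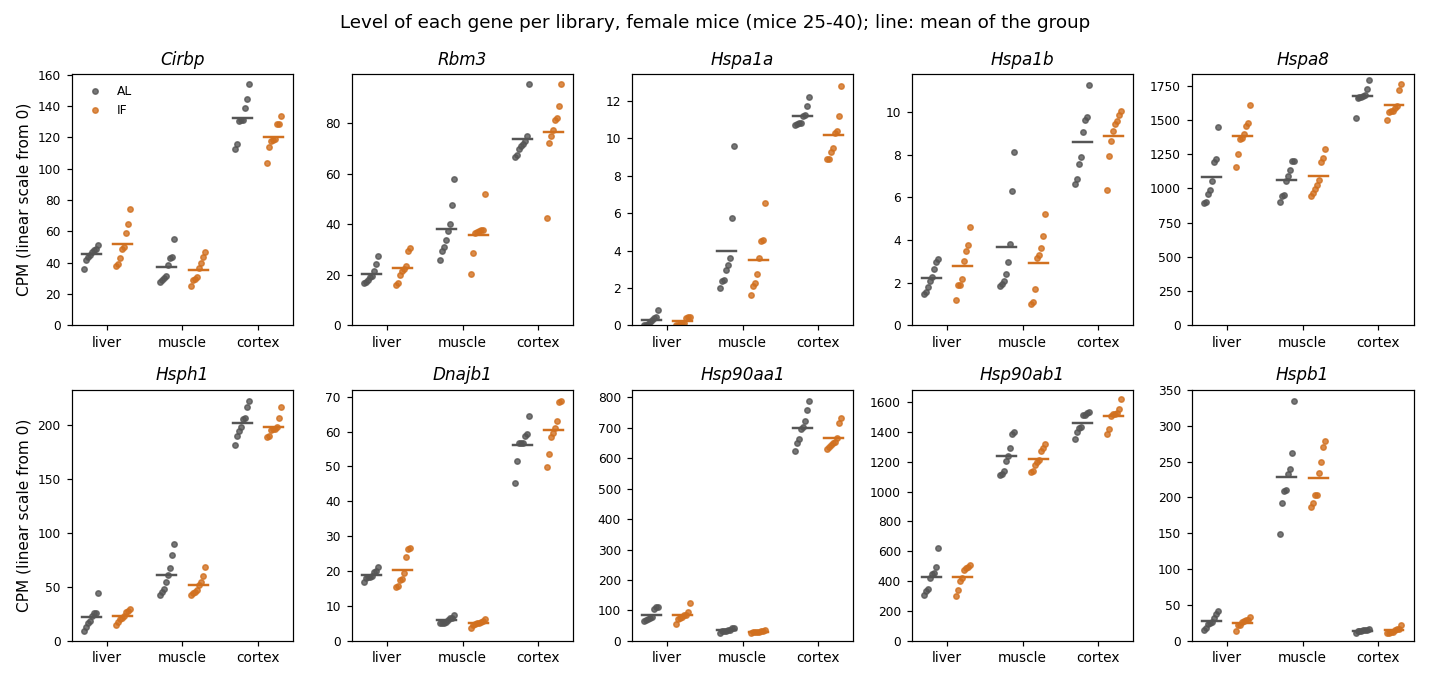
Level of each of the 10 genes in CPM (linear axis from 0) in liver, muscle and cortex of female mice, with 1 point per library, AL in grey and IF in orange, and a line at the mean of each group. The AL and IF libraries overlap for every gene in every tissue.

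The sets of mice were compared by the interaction of set and diet. In liver the response of Hsph1 was lower in females by 0.90 ± 0.31 and that of Hsp90ab1 by 0.57 ± 0.20 on the log2 scale (2 of 10 members, 23.7% of all genes). In muscle Hspa8 and Hspb1 differed by 0.42 ± 0.12 and 0.55 ± 0.18 (14.2% of all genes), the female response being the higher. Without a filter on low counts, Hsph1 in liver (adjusted p = 0.068) and Hspb1 in muscle (adjusted p = 0.0982, both edgeR) did not pass. In cortex Cirbp and Rbm3 had the lower and Hspa1b the higher response in females, by -0.48 ± 0.11, -0.50 ± 0.14 and 0.86 ± 0.22 (2.03% of all genes). The adjusted p of Rbm3 was 0.0487 (edgeR), with female IF mouse 36 and AL mouse 25 far from the rest of their groups. Without a filter, Rbm3 (0.0994) and Hspa1b (0.066) missed the threshold there, and in DESeq2 Hspa8 (0.0444) and Hspb1 (0.0457) passed it as well. These interactions leave out the male cortex library that goes against its label and were not run with it. They were also not run with single libraries left out or with Hspa1a and Hspa1b summed. Markers of other cell types were read in both sets, with a median log2 fold change of 1.7 in males and -0.36 in females for the erythrocyte genes in liver and of 2.23 and -0.35 for the fat-cell genes in muscle, and with Mbp at 0.59 and -0.14 in cortex. These differences between the sets, and their part in the members' values, were not tested. Between tissues of female mice no member differed, with 0.0047% of genes called between liver and muscle, 0% between liver and cortex and 0.0047% between muscle and cortex (1, 0 and 1 genes in edgeR, against 1648, 2037 and 1160 at an unadjusted p under 0.05). Sex cannot be told apart from any other difference between the 2 sets, since age and fasting hours of the females are not given.

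Other genes of the folding pathways were read from lists in male mice. Beside the counts below, 23.5% of all genes tested were higher and 21.1% lower in liver, 11.5% and 11.6% in muscle, and 3.79% and 3.43% in cortex. The cortex counts of the lists leave out the library that goes against its label and were not run with it. In the same libraries 3 of 5 erythrocyte genes were higher in liver (median 1.7). In muscle 4 of 4 fat-cell genes were higher (median 2.23), 2 of 3 skeletal muscle genes were lower, and slow-fibre genes had a median of -0.95 with none passing. In cortex Mbp and Mog were higher. The part of these markers in the values of the lists below was not tested. Of 19 genes for HSF1 and cytosolic co-chaperones, 6 were higher and 5 lower in IF liver, while 7 were lower and 0 higher in muscle and likewise in cortex. In liver they were led by Cdc37 (1.18 ± 0.11 on the log2 scale), which loads kinases onto HSP90, and Bag1 (0.72 ± 0.11). In muscle the leading genes were Hsf1 itself (-0.38 ± 0.06) and Bag3 (-0.34 ± 0.06), and in cortex Chordc1 (-0.41 ± 0.08) and St13 (-0.21 ± 0.05). Of the other small heat-shock genes, 6 of 6 were lower in muscle with a median of -0.49, led by Hspb8 (-0.49 ± 0.06) and Hspb2 (-0.55 ± 0.11). In liver 2 were higher and 1 lower of 4 tested, led by Hspb6 (-0.55 ± 0.12) and Cryab (0.72 ± 0.19), and in cortex none of 6 passed.

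Of 6 mitochondrial chaperones, 4 were higher and 0 lower in liver (median 0.58), led by Hspa9 (1.71 ± 0.12) and Hspd1 (0.90 ± 0.14). In muscle 1 was higher (Hspa9) and 1 lower (Grpel1), and in cortex 1 was higher (Trap1). Of the 8 TRiC chaperonin subunits, which fold actin and tubulin, 4 were higher and 1 lower in liver, led by Cct4 (1.32 ± 0.13) and Cct5 (1.24 ± 0.13), 3 were higher in muscle and none passed in cortex. CLK kinases phosphorylate SR proteins, which are splicing factors, and this step is sensitive to temperature. In liver 7 of 11 were lower (median -0.32), led by Srsf1 (-0.79 ± 0.12) and Srsf2 (-0.76 ± 0.16). In muscle 8 of 11 were higher (median 0.31), led by Clk1 (0.70 ± 0.08) and Clk4 (0.59 ± 0.07), and in cortex none passed. Of 7 immediate early genes, which are transcribed within minutes of a stimulus, 2 were higher in liver, 1 was higher and 1 lower in muscle, and none passed in cortex, where their median was -0.65. Their summed level in cortex had a median of 814.1 CPM (572.0 to 1338.5) in AL and 613.5 CPM (381.5 to 1024.8) in IF, with Egr1 the most abundant and none at 0. AL mice 3 and 7, the highest for Hspa1b, were also the highest AL mice for this sum, at 1338.5 and 1078.4 CPM. Its part in the Hspa1b value was not tested.

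Marker lists of other cell types were read the same way in male mice. Slow-fibre genes in muscle (Myh7, Tnnt1, Tnni1, Tnnc1) had summed medians of 431 CPM (8.04 to 1137) in AL and 285 (19.95 to 427) in IF, led by Tnnt1, and 0 of 4 passed. The 3 skeletal muscle genes had 2 lower in IF muscle, the 3 hepatocyte genes 1 lower in IF liver and the 3 neuron genes none in cortex. The oligodendrocyte genes Mbp and Mog, given above, were higher in IF cortex. Among 3 endothelial genes 1 was higher in liver and 1 lower in muscle (Kdr in both), among 3 macrophage genes 1 was lower in muscle (Csf1r), and among 3 astrocyte genes 1 was lower in cortex (Aqp4). Of the 4 adipocyte genes, Cfd was lower in IF liver (-4.70 ± 0.30 on the log2 scale). Cfd held a mean of 21.41 CPM of their summed 21.56 in AL liver and 0.904 of 1.235 in IF liver. The value thus speaks for Cfd and not for the list. In female mice no gene of any list passed in edgeR.

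The genes of most similar pattern were sought among 12655 genes tested in all 6 comparisons, by Pearson's r over 95 libraries after removing the mean of each tissue, diet and set of mice. For Rbm3 they included Srsf2 (r = 0.62) and Nfatc2ip (0.61), and for Cirbp Adprs (0.65), Hnrnpa0 (0.64) and Spsb2 (0.59). Hspa8 was nearest to Stip1 (0.70), Hsp90aa1 (0.58) and Hspa5 (0.58), Hsp90aa1 to Dnaja1 (0.71), Hspa4l (0.67) and St13 (0.59), and Hsph1 to P4ha1 (0.79), Chordc1 (0.72) and Trim65 (0.71). Hspa1b and Dnajb1 were each other's nearest gene (0.59), followed by Edem1 (0.58) and Gnai3 (0.53) for the former and Samd4b (0.55) and Nup50 (0.47) for the latter. Hspb1 was nearest to Eci1 (0.63), Ahsa1 (0.57) and Ech1 (0.53), Hsp90ab1 to Cdc42 (0.79), Surf4 (0.76) and Lamp1 (0.74), and Hspa1a to Ywhah (0.55), Rcan1 (0.53) and Lpl (0.52). Within muscle, Hsph1 and Cirbp ran against each other (r = -0.80), and over all tissues r was -0.51. Libraries of 1 mouse share the animal, and the values are a description.

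RefSeq promoters (GRCm38.p6) were at hand for 6 of the 10 members. The 250 bases before each start were searched on both strands for a pair of heat-shock units, spelled GAANNTTC or TTCNNGAA, which 12.8% of all 32851 promoters hold, and for 3 units in a row, GAANNTTCNNGAA or TTCNNGAANNTTC, which 0.466% hold. No entry was at hand for Rbm3, Hspa8, Hsp90aa1 or Hsp90ab1. Hspa1a, Hspa1b, Hsph1 and Hspb1 held a pair, Cirbp and Dnajb1 did not, and none held 3 units. The 150 bases before the start of those 4 genes are shown because they hold the matches, with the matched letters in capitals. Cirbp and Dnajb1, which held none, also passed the diet test in a male tissue. The Hspa1a stretch lies at chr17:34972157-34972306 and the Hspa1b stretch at chr17:34959239-34959388, both on the minus strand, and their 250 bases are equal at 247 positions. The Hsph1 stretch lies at chr5:149636337-149636486 on the minus strand and the Hspb1 stretch at chr5:135887769-135887918 on the plus strand.
Hspa1a: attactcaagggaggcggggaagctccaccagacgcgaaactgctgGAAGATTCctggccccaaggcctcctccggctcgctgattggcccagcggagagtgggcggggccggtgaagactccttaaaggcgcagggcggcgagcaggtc
Hspa1b: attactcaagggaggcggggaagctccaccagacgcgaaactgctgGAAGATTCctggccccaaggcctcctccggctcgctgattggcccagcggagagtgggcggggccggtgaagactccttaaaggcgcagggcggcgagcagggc
Hsph1: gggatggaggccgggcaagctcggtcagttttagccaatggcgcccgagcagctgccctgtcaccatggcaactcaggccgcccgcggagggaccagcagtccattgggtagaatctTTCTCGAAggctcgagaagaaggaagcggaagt
Hspb1: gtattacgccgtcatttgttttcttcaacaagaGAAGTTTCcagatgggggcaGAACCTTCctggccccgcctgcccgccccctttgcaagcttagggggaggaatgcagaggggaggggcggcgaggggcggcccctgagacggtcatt
A match is a description, neither a site nor a cause.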

How the data were processed

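RNA-seq libraries of 3 tissues were read from 1 table of deposited counts, which the authors made by aligning to GRCm39 with Hisat2 and counting reads per gene with featureCounts, without normalization. The table's gene length was used for levels per kilobase. Libraries were assigned to tissue, diet and set of mice from their labels. Each tissue and set of mice was fitted with edgeR 4.0.16 in R 4.3.3 (TMM, expression filter with a minimum count of 10 and total of 15, robust quasi-likelihood test, Benjamini-Hochberg adjustment over all genes, threshold 0.05). Interactions of set and diet and of tissue and diet were fitted likewise. Alternatives were RLE factors, library totals alone, DESeq2 1.42.0, 2 other filters, a replicate block, an erythrocyte covariate, each library left out, AL mouse 2 and IF mouse 10 left out, and the omitted library included, and, added after the data were seen, Hspa1a and Hspa1b summed. Similar patterns used log2 CPM with a prior count of 2. The fits were tested on simulated data. The members and lists were chosen with earlier results of these data known. Depth was 26097314 to 49838004 counts per library, and errors are between mice. All 10 members are named, with the 2 genes of smallest p per pathway list and tissue and the 3 genes most like each member (2 for Rbm3). Python 3.11.15 with matplotlib 3.10.9 made the plots.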

Additional observations from a re-analysis of the deposited data

Results flagged for a closer look

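Of 120 groups of libraries (10 genes, 3 tissues, 2 diets and 2 sets of mice), 8 held a library far from the rest of its group, and chance gives about 1 in 20. Rbm3 was low in male AL liver mouse 6 (10 CPM, next 17.3), high in female AL cortex mouse 25 (95.5, next 75.0) and low in female IF cortex mouse 36 (42.5, next 72.3). Hspa1a was high in male AL cortex mouse 3 (20.6 CPM, next 13.9). Hspa8 was high in male AL muscle mouse 8 (1635 CPM, next 1287) and low in female AL cortex mouse 26 (1512, next 1660). Dnajb1 was high in male IF cortex mouse 10 (77.2 CPM, next 65.0), and Hspb1 in male IF liver mouse 16 (180 CPM, next 109).

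The diet response differed between the sets of mice, female minus male on the log2 scale, for Hsph1 (-0.90) and Hsp90ab1 (-0.57) in liver, Hspa8 (0.42) and Hspb1 (0.55) in muscle, and Cirbp (-0.48), Rbm3 (-0.50) and Hspa1b (0.86) in cortex. Between tissues of male mice, liver minus muscle was 2.73 for Hspa1a, 1.77 for Hspa1b, 0.51 for Hspa8, 1.06 for Hsph1, 0.73 for Dnajb1, 0.60 for Hsp90ab1 and 1.10 for Hspb1. Liver minus cortex was 2.21 for Hspa1a, 1.54 for Hspa1b, 0.54 for Hspa8, 1.15 for Hsph1, 0.83 for Dnajb1, 0.69 for Hsp90ab1, 1.26 for Hspb1 and -0.59 for Rbm3. Each was tested as an interaction in edgeR over all genes.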

How the results depend on the processing

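In male liver 2 members and 4284 genes passed with the erythrocyte covariate. In male muscle 5 members passed with DESeq2 and 1 without a filter. In male cortex 4 members and 498 genes passed without AL mouse 2 and IF mouse 10, 1 member and 294 genes with the omitted library, 2259 genes with DESeq2 and 382 genes with the replicate block. Replicate numbers were not taken to pair the samples. The r of same-numbered mice ran from -0.262 to 0.457, both in female muscle, where 4 of 8 pairs were over 0.1. The block is given here only, as an alternative. Leaving out 1 library at a time gave 3 to 5 members in liver, 2 to 4 in muscle and 5 to 7 in cortex, with 638 to 2060 genes in male cortex, 1 to 3 in female muscle and 0 to 254 in female cortex, where AL mouse 26 gave the 254. In female mice DESeq2 called 6 genes in liver, 91 in muscle and 73 in cortex, no filter gave 5 in muscle, and library totals, the replicate block and the covariate gave 0 in cortex. For the sets of mice, 1 member passed in liver, muscle and cortex each without a filter (220 genes in cortex), and DESeq2 gave 5 members and 706 genes in cortex. For the tissues of female mice, RLE factors gave 2 genes between liver and muscle, and dropping the mouse block gave 13 there and 12 between liver and cortex. Values under neither setting past the threshold changed sign as follows (log2). Rbm3 in male liver was -0.013 with RLE factors and DESeq2 and -0.017 without a filter. Library totals alone gave 0.021 for Dnajb1 in male muscle, -0.031 for Hsp90aa1 and -0.00035 for Hsp90ab1 in female liver, and -0.022 for Hsp90ab1 and -0.0085 for Hspb1 in female muscle. In female muscle the covariate gave 0.0052 for Cirbp, 0.013 for Rbm3 and 0.10 for Hspa1a, and Rbm3 was 0.0011 with RLE factors, 0.00089 in DESeq2 and 0.0059 without a filter. The difference between the sets for Hsph1 in muscle was -0.0015 with RLE factors, -0.0017 in DESeq2 and -0.004 without a filter, and that between liver and cortex of female mice for Hsp90ab1 was -0.00098 with the mouse block dropped. Between tissues of 1 mouse, Spearman's rho was -0.03 for Cirbp (liver and cortex) and 0.02 for Hsp90aa1 (liver and muscle). Leaving out 1 library at a time gave ranges of -0.031 to 0.11 for Cirbp and -0.065 to 0.093 for Rbm3 in male liver, -0.18 to 0.047 for Dnajb1 and -0.022 to 0.053 for Hsp90ab1 in male muscle, -0.04 to 0.27 for Hsph1, -0.09 to 0.094 for Hsp90aa1, -0.016 to 0.13 for Hsp90ab1 and -0.16 to 0.042 for Hspb1 in female liver, -0.069 to 0.087 for Cirbp, -0.11 to 0.095 for Rbm3 and -0.31 to 0.19 for Hspa1a in female muscle, and -0.046 to 0.11 for Hspb1 in female cortex. With the replicate block, Hspa1b passed in male liver (adjusted p = 0.014, edgeR), and Hspa1b (0.0578) and Hsph1 (0.0737) did not in male cortex. The causes were not tested.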

Other observations

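The correlation between tissues of the same mouse was added after the data were seen, for each of the 10 genes and 3 pairs of tissues (30 relations), on log2 CPM after removing the group means. For Hspa1b in liver and muscle, Pearson's r was 0.57 over 32 mice (permutation p = 0.00137 within groups, 0.0411 adjusted over the 30 relations) and Spearman's rho 0.54 (permutation p = 0.00297, adjusted 0.06). Without the 2 mice farthest from the median of liver, r was 0.50. Within groups r was 0.80 in male AL, 0.91 in male IF, 0.42 in female AL and -0.03 in female IF mice. This was the one relation of the 30 with an adjusted p under the threshold, and by rank it missed it. For Hspa8 in muscle and cortex, r was 0.53 over 31 mice (permutation p = 0.00363, adjusted 0.0544) and rho 0.52 (permutation p = 0.004, adjusted 0.06), and r was 0.50 without the 2 farthest mice.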
